A study of Mus musculus with 6 samples.

Results

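The transcripts of p53 and 9 of its best-known target genes were measured in CD27SP NK cells, an early stage of NK cell maturation that carries NK1.1 and CD27 but not CD11b. The members, Trp53, Cdkn1a, Mdm2, Trp53inp1, Ccng1, Zmat3, Phlda3, Eda2r, Sesn1 and Bbc3, were chosen by name as textbook p53 targets, by a rule that uses no measured value. All 10 were among the 25690 gene symbols, and 9 of them were among the 15474 genes with enough counts for a test. The comparison asks whether the p53 response, which defects in ribosome production can set off, moved when NK cells lost Myc.

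The cells were sorted from the bone marrow (BM) of mice of 2 genotypes, Ncr1cre Myc wt/wt, called wt/wt here, and its Myc-deleted counterpart Ncr1cre Myc fl/fl, called fl/fl. Each genotype gave 3 libraries, numbered 1, 2 and 4. Both genotypes carry the Ncr1cre allele, in which Cre is expressed from the Ncr1 locus. The floxed Myc alleles are thus deleted only once a cell turns on NKp46. The mice were sex- and age-matched and backcrossed to C57BL/6. The methods give an age range, of young adults, for the mice of all experiments together. The age behind each library, and whether it came from 1 mouse or a pool, is not stated. Part of the Ncr1cre Myc wt/wt line was also bred to carry CD45.1, and which libraries it concerns is not stated.

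p53 is a transcription factor that Mdm2 normally keeps low by marking it for degradation. In ribosomal stress, free ribosomal proteins such as Rpl5 and Rpl11 bind Mdm2, and p53 then accumulates and switches on genes for cell cycle arrest, apoptosis and repair. This accumulation is mainly at the protein level, so the mRNA of the targets, rather than that of Trp53, is the usual transcript readout. Myc drives ribosome production, and in many cells it also influences Trp53 and represses Cdkn1a.

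Myc itself checked the genotype labels. Its level was 200.5, 183.4 and 164.3 counts per Mio counts (CPM, normalized by TMM) in wt/wt libraries 1, 2 and 4 and 61.5, 64.6 and 76.5 in fl/fl libraries of these numbers. The groups did not overlap, and the log2 fold change of fl/fl over wt/wt was −1.44 (standard error, SE, 0.15, edgeR adjusted p = 0.00189). All p-values across genes come from edgeR's quasi-likelihood fit over the 15474 genes unless another tool is named, in which a term for the library number (the replicate block) takes up differences shared by equal numbers. Library totals were between 54550907 and 64962491 estimated counts, except for wt/wt library 1, which held 8101219. Values of weakly expressed members rest on few counts in that library, and where a call turned on it, values without it are given.

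Promoter sequences were examined first, because they show which members carry the motifs of p53 and of Myc close to a start site. RefSeq promoters (GRCm38.p6, from 250 bases before to 50 bases after the start) were at hand for 8 of the 10 members, in 12 windows. Trp53inp1 and Zmat3 were not matched. Both strands were searched for the p53 half-site consensus and for the E-box CACGTG, the motif that Myc binds with Max. The half-site occurred in 5 of the 12 windows, belonging to 5 members, and in 8.36% of all 32851 promoters. The E-box occurred in 3 of the 12 windows, belonging to 3 members, and in 7.15% of all promoters. No match of one motif overlapped a match of the other. The matches of the members described most closely below are printed 5′ to 3′ on the strand of the gene, with the matched motif in capitals.
Trp53, E-box, chr11:69580357-69580386 (+): actttcccctccCACGTGctcaccctggct
Trp53, half-site, chr11:69580274-69580303 (+): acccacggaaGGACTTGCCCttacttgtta
Cdkn1a, half-sites, chr17:29090896-29090947 (+): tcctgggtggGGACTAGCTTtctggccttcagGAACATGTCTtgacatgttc
Mdm2, half-site, chr10:117710925-117710954 (-): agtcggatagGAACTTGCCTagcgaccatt
Sesn1, half-site, chr10:41887256-41887285 (+): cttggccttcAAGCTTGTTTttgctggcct
Cdkn1a was the member with 2 half-sites in 1 window, separated by 12 bases. Ccng1 also held a half-site, and Bbc3 and Eda2r also held an E-box. A match is a string of letters only, and p53 sites farther from the start lie outside these windows.

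Trp53 was lower in each fl/fl library than in any wt/wt library, by a similar amount in each. The gene (ENSMUSG00000059552.13, chromosome 11 of GRCm38 from 69580359 to 69591873, plus strand) had 186.2, 199.8 and 195.9 CPM in wt/wt libraries 1, 2 and 4. It had 139.4, 143.0 and 145.3 CPM in fl/fl libraries 1, 2 and 4. The 2 groups were apart, and the mean of 142.6 ± 2.96 CPM (SD, n = 3) in fl/fl was 73.5% of the 194.0 ± 7 CPM (SD, n = 3) in wt/wt. The log2 fold change was −0.44 (SE 0.13, 95% interval −0.73 to −0.16), and edgeR gave an unadjusted p of 0.00651 and 0.0675 after adjustment. Trp53 therefore did not pass the threshold, set at an adjusted p below 0.01 and a log2 fold change of 0.5 or more in either direction. The adjusted p was 0.0121 in DESeq2 and 0.0261 in edgeR without the replicate block. In a bulk sample, fewer cells of a kind and less RNA per cell cannot be told apart.

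**Figure D1:**
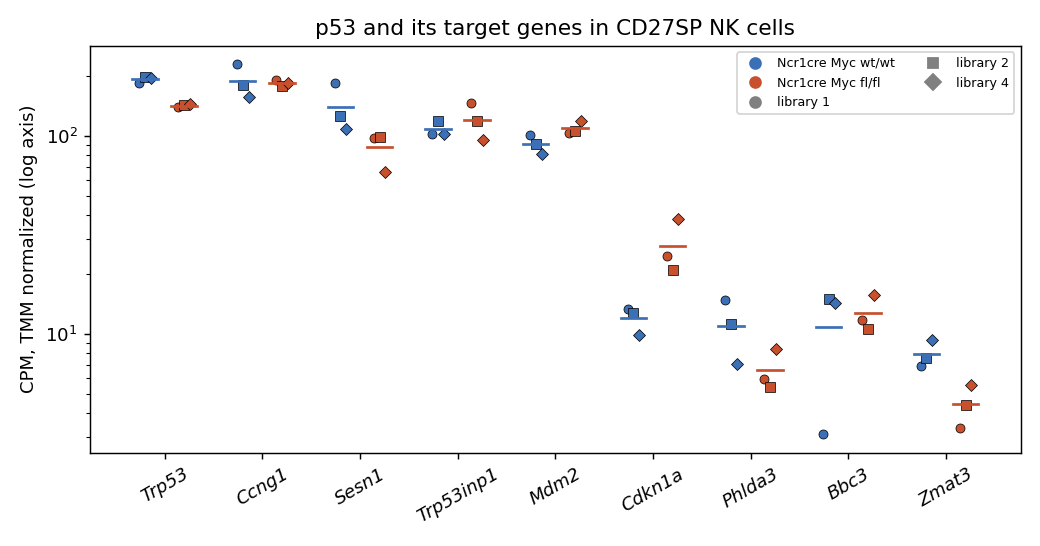
TMM-normalized CPM (log axis) of the 9 tested members in each library, with wt/wt in blue and fl/fl in orange. Symbols mark libraries 1, 2 and 4, and bars mark the means. Trp53, Sesn1 and Zmat3 lay lower in every fl/fl library and Cdkn1a and Mdm2 lay higher, while the groups of the other 4 overlapped.

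Mdm2, the ubiquitin ligase that degrades p53 and is itself induced by it, differed by less. Its CPM were 101.2, 91.1 and 80.9 in the wt/wt libraries and 103.7, 105.9 and 119.1 in the fl/fl libraries. The groups did not overlap, but the highest wt/wt library and the lowest fl/fl library were close. The log2 fold change of Mdm2 (ENSMUSG00000020184.15, chromosome 10 from 117688875 to 117710758, minus strand) was 0.27 (SE 0.15, 95% interval −0.06 to 0.60, edgeR adjusted p = 0.314). Without replicate 4 it was 0.11 (adjusted p = 0.869). The interval leaves room for no difference and for a rise of up to 0.60 on the log2 scale.

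Cdkn1a encodes p21, the CDK inhibitor through which p53 halts the cell cycle, and with all libraries it had the largest log2 difference among the 9 tested members. Its CPM were 13.3, 12.8 and 9.91 in the wt/wt libraries and 24.7, 21 and 38.2 in the fl/fl libraries. All fl/fl libraries were above all wt/wt libraries, and fl/fl library 4 stood well above the other two. The means were 12 ± 1.81 and 27.9 ± 9.04 CPM (SD, n = 3 each), a 2.33-fold difference. The log2 fold change of Cdkn1a (ENSMUSG00000023067.14, chromosome 17 from 29090976 to 29100727, plus strand) was 1.19 (SE 0.25, 95% interval 0.63 to 1.76). Its unadjusted p was 0.000861 and its adjusted p 0.0214 in edgeR, so that it missed the threshold, whereas DESeq2 gave an adjusted p of 0.000261. In the same-numbered libraries 1, 2 and 4 the log2 differences were 0.90, 0.72 and 1.95. Without replicate 4 the log2 fold change of Cdkn1a was 0.78 (adjusted p = 0.105, edgeR), nearer to 0 than those of Phlda3 and Zmat3 in that fit. In wt/wt library 1 the value rests on 102 counts, and in the other 5 libraries on 649 or more.

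Ccng1, a cyclin G whose transcript is among the most regular p53 targets, showed no difference beyond the spread between libraries. It had 230.0, 181.9 and 157.8 CPM in the wt/wt libraries and 191.7, 179.4 and 185.9 CPM in the fl/fl libraries. The fl/fl values lay inside the wt/wt range. For Ccng1 (ENSMUSG00000020326.7, chromosome 11 from 40748552 to 40755311, minus strand) the log2 fold change was −0.01 (SE 0.14, edgeR adjusted p = 0.974). Its 95% interval ran from −0.34 to 0.31, which excludes a change as large as the estimate for Cdkn1a.

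Of the members that act in apoptosis and survival signalling, none passed the test, and Bbc3, Phlda3 and Eda2r were weakly expressed. Bbc3 encodes Puma, a BH3-only protein that triggers mitochondrial apoptosis. It had 3.12, 15 and 14.3 CPM in the wt/wt libraries and 11.8, 10.6 and 15.8 CPM in the fl/fl libraries. The groups overlapped, and only wt/wt library 1, with 24 counts, stood apart. For Bbc3 (ENSMUSG00000002083.13, chromosome 7 from 16308393 to 16318205, plus strand) the log2 fold change was 0.38 (SE 0.38, edgeR adjusted p = 0.62), and it became −0.18 without replicate 1.

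Trp53inp1, a nuclear protein that promotes p53 phosphorylation and autophagy, had 102.6, 119.4 and 102.5 CPM in the wt/wt libraries. In the fl/fl libraries it had 147.5, 119.6 and 95.9 CPM, a range that enclosed that of wt/wt. Its log2 fold change (ENSMUSG00000028211.11, chromosome 4 from 11156431 to 11174379, plus strand) was 0.14 (SE 0.16, edgeR adjusted p = 0.668), and it was −0.05 without replicate 1.

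Phlda3, which restrains Akt, had 14.8, 11.2 and 7.05 CPM in the wt/wt libraries and 5.9, 5.41 and 8.39 CPM in the fl/fl libraries. Library 4 went against the other two, so the groups overlapped. Phlda3 (ENSMUSG00000041801.5, chromosome 1 from 135766119 to 135769136, plus strand) had a log2 fold change of −0.70 (SE 0.32, edgeR adjusted p = 0.225). It was −1.20 without replicate 4 (adjusted p = 0.0335) and −0.40 without replicate 1 (adjusted p = 0.597).

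Eda2r, a receptor of the TNF receptor family, was close to the limit of detection in both genotypes. It had 0, 18 and 4 counts in the wt/wt libraries and 1, 7 and 2 counts in the fl/fl libraries, and it did not pass the filter on low counts. The 0 in the shallow wt/wt library 1 allows up to 0.39 CPM, which is above the value of every other library. A difference in Eda2r (ENSMUSG00000034457.10, chromosome X from 97333840 to 97377216, minus strand) was not detectable at this depth.

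Sesn1 encodes sestrin 1, a stress-induced inhibitor of mTORC1, and it was lower in each fl/fl library than in any wt/wt library. It had 186.2, 126.0 and 108.0 CPM in the wt/wt libraries and 97.6, 99.2 and 65.7 CPM in the fl/fl libraries. The means of 140.1 ± 40.9 and 87.5 ± 18.9 CPM (SD, n = 3 each) put fl/fl at 62.5% of wt/wt. The log2 fold change of Sesn1 (ENSMUSG00000038332.13, chromosome 10 from 41809935 to 41908424, plus strand) was −0.66 (SE 0.15, 95% interval −1.0 to −0.33). The unadjusted p was 0.00142 and the adjusted p 0.0284 in edgeR, above the limit, and 0.00194 in DESeq2. Without the block the adjusted p was 0.0843. Without wt/wt library 1, which was the highest, and without the block, the log2 fold change was −0.43 (adjusted p = 0.191).

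Zmat3, a zinc finger protein that binds RNA and takes part in splicing and RNA stability, likewise had lower values in fl/fl. It had 6.89, 7.53 and 9.27 CPM in the wt/wt libraries and 3.34, 4.35 and 5.51 CPM in the fl/fl libraries. The groups did not overlap, and the mean in fl/fl was 55.7% of that in wt/wt. Zmat3 (ENSMUSG00000027663.12, chromosome 3 from 32334792 to 32366014, minus strand) had a log2 fold change of −0.85 (SE 0.24, 95% interval −1.40 to −0.31). Its unadjusted p was 0.00591 and its adjusted p 0.0641 in edgeR.

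**Figure D2:**
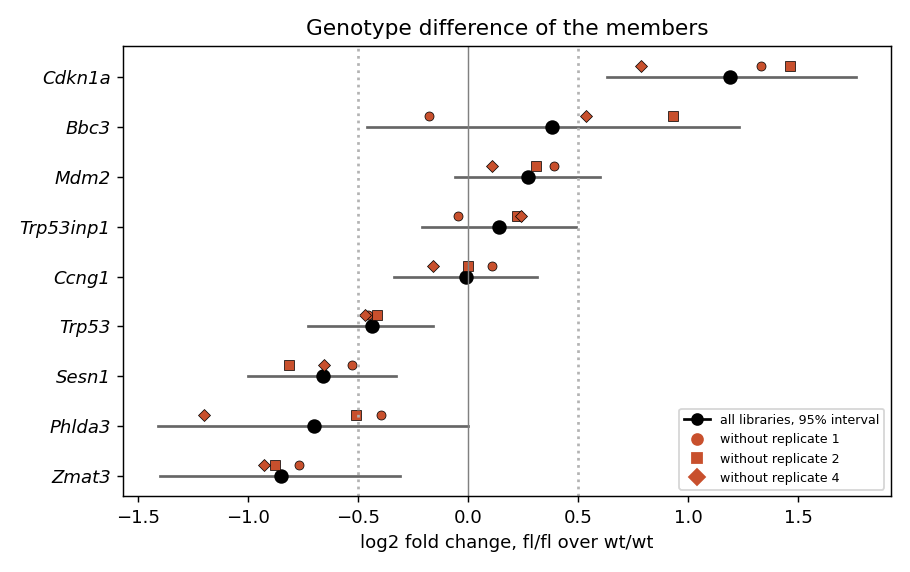
Log2 fold change of fl/fl over wt/wt for the 9 tested members (x axis), with the 95% interval from all 6 libraries in black and the estimate without replicate 1, 2 or 4 in orange. Dotted lines mark −0.5 and 0.5. Cdkn1a stayed above 0 and Trp53, Sesn1, Phlda3 and Zmat3 stayed below 0 whichever replicate was left out, whereas Bbc3, Trp53inp1 and Ccng1 changed sign.

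Counted together, the members did not move in a single direction. With the replicate block, edgeR called 0 of the 9, where 0.872% of all 15474 genes were called lower and 1.28% were called higher. At an unadjusted p below 0.05 in edgeR, 3 members were lower (Trp53, Zmat3 and Sesn1) and 1 was higher (Cdkn1a), against 10.2% and 12.4% of all genes. The groups did not overlap for 3 lower and 2 higher members, against 15.1% and 16.2% of all genes. DESeq2 with the same limits called 1 lower (Sesn1) and 1 higher (Cdkn1a), where its calls covered 3.54% and 4.17% of all genes. The same 2 members passed in edgeR at an adjusted p below 0.05 with no fold limit (3.38% and 4.45% of all genes called lower and higher). They also passed in edgeR without a filter on low counts (1.83% and 2.53% of 20689 genes). The median log2 fold change of the 9 members was −0.01, and that of all genes tested was 0.01. It was −0.18 without replicate 1, −0.16 without replicate 4 and −0.22 without wt/wt library 1 and the block. With no filter on low counts, over all 10 members, it was also −0.22. In the same-numbered libraries the medians of the members were −0.26, −0.34 and 0.15.

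Levels of different members were compared per length, on the deposited scale of transcripts per Mio (TPM), summed by gene. Trp53 was the most abundant, with 144.4, 185.2 and 171.8 TPM in the wt/wt libraries and 127.9, 130.8 and 130.5 TPM in the fl/fl libraries. In wt/wt it was followed by Sesn1 at 70.4 ± 18.2, Ccng1 at 65 ± 11.8 and Mdm2 at 49.2 ± 5.59 TPM (SD, n = 3 each). Trp53inp1 at 23.7 ± 2.66, Cdkn1a at 23.2 ± 2.21, Bbc3 at 16 ± 10.8 and Phlda3 at 13.1 ± 3.85 TPM came next. Zmat3 at 1.7 ± 0.248 TPM and Eda2r at 0.114 TPM were the lowest. Neighbours in this order overlapped between libraries, apart from 4 steps. These were Trp53 to Sesn1, Mdm2 to Trp53inp1, Phlda3 to Zmat3 and Zmat3 to Eda2r. In fl/fl, Sesn1 stood at 46.7 ± 10.4 TPM in rank 5, below Cdkn1a at 61.5 ± 19.8 TPM in rank 4 and Mdm2 at 67.4 ± 8.66 TPM in rank 2. The fl/fl libraries of Sesn1 and Cdkn1a overlapped on this scale, and those of Sesn1 and Mdm2 did not. CPM divided by effective length gave the same ranks in wt/wt.

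The transcripts that carried the members' counts were compared as shares of the gene's estimated counts. With 3 libraries against 3, the smallest p of the exact permutation test is 0.10, so no share could reach 0.05. Of 16 shares compared, 4 did not overlap between the genotypes (exact two-sided p = 0.1 for each, adjusted p = 0.4 over the 16). By counts, these belonged to Zmat3 and Trp53.

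For Zmat3, the coding transcript ENSMUST00000029199 held 70.7%, 71.3% and 77% of the counts in wt/wt and 41%, 66.5% and 56.9% in fl/fl. The single-exon transcript ENSMUST00000195055, annotated as a retained intron, held 29.3%, 28.7% and 23% in wt/wt and 38.4%, 33.5% and 36.5% in fl/fl. The share of ENSMUST00000029199 was thus smaller in each fl/fl library than in any wt/wt library, in a weakly expressed gene. In fl/fl libraries 1 and 4, other Zmat3 transcripts, not described here, held the rest of the counts. For Trp53, ENSMUST00000005371 held 35.9%, 43.4% and 42.1% in wt/wt and 50.3%, 44.9% and 50% in fl/fl. ENSMUST00000108658 held 54%, 40.2% and 40.6% in wt/wt and 35.2%, 39.7% and 37.4% in fl/fl. These 2 Trp53 transcripts are annotated with the same start and with lengths of 1772 and 1771 bases. On the scale of TPM shares, ENSMUST00000108658 overlapped between the genotypes, the other 3 shares did not, and the Bbc3 transcript ENSMUST00000002152 did not overlap either, so which shares were apart depended on the scale.

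Mdm2 has a second promoter, in its first intron, through which p53 induces it. The 3 annotated Mdm2 transcripts that start there, between 466 and 736 bases after the first start, held 1.94%, 4.93% and 10.4% of its counts in wt/wt and 3.6%, 10.5% and 8.22% in fl/fl. The groups overlapped (exact two-sided permutation p = 0.7, n = 3 each). Among the Cdkn1a transcripts with a mean share of at least 10% in either genotype, ENSMUST00000119901 had the most upstream start. Its promoter window holds both half-sites printed above, and it held 37%, 35.6% and 42.1% in wt/wt. In fl/fl it held 43.7%, 41.7% and 45.8%, overlapping with wt/wt (exact two-sided permutation p = 0.2, n = 3 each). Of the Sesn1 counts, ENSMUST00000041438, which starts downstream and whose window holds the half-site, took 94%, 90.1% and 89.8% in wt/wt and 87.5%, 91.8% and 84.6% in fl/fl. The annotation places 1 gene, AC167363.2, opposite to Cdkn1a, and it was not in the tables. The library kit does not mark strand.

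The wider pathway was described with lists of genes written from general knowledge. The upstream regulators of p53 (kinases, ligases, deubiquitinases and cofactors) had 24 of 28 genes tested, of which 0 passed in edgeR with the replicate block in either direction. The median log2 fold change was −0.04. In this list, 3 genes were lower and 1 was higher at an unadjusted p below 0.05, against 10.2% and 12.4% of all genes. DESeq2 called 1 lower, where its lower calls covered 3.54% of all genes. The smallest p belonged to Chek1, a checkpoint kinase, with 34.2, 23.3 and 23.3 CPM in wt/wt and 12.9, 14.1 and 14.2 CPM in fl/fl (log2 fold change −0.94, adjusted p = 0.0228, edgeR). Trp53bp1 (0.38, adjusted p = 0.153) and Chek2 (−0.51, adjusted p = 0.157) followed. Cdkn2a, which encodes the Mdm2 inhibitor Arf, had no count in any wt/wt library, and neither had Trp63 and Trp73, the relatives of Trp53.

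The sensors of ribosomal stress, which are ribosomal and nucleolar proteins known to bind Mdm2 or p53, were lower in fl/fl. Most of them are ribosomal protein genes, and the paper reports the ribosome as the most deregulated gene set in these cells. The sensors were not compared here with the other ribosomal protein genes. All 21 sensors were tested, and 11 fell past the threshold and 0 rose, against 0.872% and 1.28% of all genes. The log2 fold changes ran from −1.30 to −0.40 with a median of −0.94. At an unadjusted p below 0.05, 20 were lower and 0 higher, against 10.2% and 12.4% of all genes. Rpl5 had 725.7, 393.5 and 480.3 CPM in wt/wt and 198.2, 229.1 and 203.8 CPM in fl/fl (log2 fold change −1.30, SE 0.20, edgeR adjusted p = 0.00592). Rpl11 had 155.0, 142.9 and 170.7 CPM in wt/wt and 91.5, 87.5 and 79.6 CPM in fl/fl (log2 fold change −0.86, SE 0.14, edgeR adjusted p = 0.00786). For both, every fl/fl library was below every wt/wt library.

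The smallest adjusted p of this list was that of Rps15 (log2 fold change −1.05, adjusted p = 0.00348, edgeR), followed by the nucleolar protein Npm1 (−1.12, adjusted p = 0.00447) and by Rps3 (−0.94, adjusted p = 0.00507). The other genes that fell were Rpl6, Rpl23, Rpl26, Rps7, Rps20 and Rps26, with log2 fold changes between −1.13 and −0.98. The count of 11 was 0 without replicate 1 and with offsets from effective lengths, where the lower calls over all genes went from 135 to 10 and to 8, and it was 19 in DESeq2, where they were 548. The 11 genes had log2 fold changes from −1.21 to −0.88 without replicate 1 and from −1.18 to −0.84 with effective lengths. Without the block, the adjusted p of Rpl26 was 0.0107, and without wt/wt library 1 and the block that of Rps7 was 0.0141. Reads of ribosomal protein genes can be divided with near-identical pseudogenes. The lower transcript levels of these sensors and the members' values above come from the same 6 libraries.

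The other p53 targets comprised 76 genes in 5 lists by function, of which 69 were tested. By the main rule 1 fell and 4 rose, and the median log2 fold change was 0.17. At an unadjusted p below 0.05, 7 were lower and 22 higher, and the same numbers of genes had groups that did not overlap. The shares of all genes for these rules are those given with the members.

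Among 9 tested genes of cell cycle arrest, 2 rose and 0 fell, with a median of 0.41, and 4 were higher and 2 lower at an unadjusted p below 0.05. Plk2, a polo-like kinase, had 7.28, 7.39 and 9.69 CPM in wt/wt and 16.6, 18.5 and 33.5 CPM in fl/fl (log2 fold change 1.45, SE 0.21, edgeR adjusted p = 0.00507). Like Cdkn1a, it was highest in fl/fl library 4, and without the block its adjusted p was 0.0114. Zfp385a, a zinc finger cofactor of p53, had 0.13, 0.461 and 0.29 CPM in wt/wt and 1.67, 2.21 and 2.24 CPM in fl/fl (log2 fold change 2.74, SE 0.46, edgeR adjusted p = 0.00879). The count of 2 was 0 without any 1 of the replicates, with effective lengths, with library size only and after thinning, and 3 in DESeq2. It was also 0 without wt/wt library 1 and the block together, and 1 without the block alone. Without wt/wt library 1 and the block, Plk2 was at 1.41 (adjusted p = 0.0385) and Zfp385a, which is close to the detection limit in that library, at 2.43 (adjusted p = 0.0116). Ckap2, a spindle protein, had a log2 fold change of −0.82 (adjusted p = 0.0205).

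Of the apoptosis targets, 13 were tested and 0 passed in either direction in edgeR or in DESeq2, with 1 lower and 3 higher at an unadjusted p below 0.05 and a median of −0.01. Siva1 (−0.44, adjusted p = 0.11), Perp (1.32, adjusted p = 0.113) and Pmaip1, which encodes Noxa (0.96, adjusted p = 0.133), had the smallest p. Of the targets in metabolism and autophagy, 13 were tested and 0 passed in edgeR or in DESeq2, with 0 lower and 3 higher at an unadjusted p below 0.05 and a median of −0.01. Their smallest p belonged to Dram1 (1.24, adjusted p = 0.0873), Gpx1 (0.55, adjusted p = 0.123) and Ulk1 (0.47, adjusted p = 0.2).

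Of the 9 tested DNA repair targets, 0 passed in edgeR, with 1 lower and 1 higher at an unadjusted p below 0.05. DESeq2 called 1, Pcna (log2 fold change −0.59, adjusted p = 0.0431 in edgeR). Xpc (0.51, adjusted p = 0.077) and Ascc3 (0.28, adjusted p = 0.234) had the next smallest p in edgeR, and the median was 0.28.

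Of 25 further targets tested, 1 fell and 2 rose, with a median of 0.23. Here 3 were lower and 11 higher at an unadjusted p below 0.05, and the groups were apart for 2 lower and 10 higher. Sertad1, which binds Cdk4, had 24, 33.9 and 40.1 CPM in wt/wt and 55.3, 74.1 and 80.1 CPM in fl/fl (log2 fold change 1.11, SE 0.14, edgeR adjusted p = 0.00332). Lif, a cytokine of the IL-6 family, had 0.52, 1.12 and 2.21 CPM in wt/wt and 10.3, 6.29 and 8.19 CPM in fl/fl (log2 fold change 2.61, SE 0.40, edgeR adjusted p = 0.00597). Dglucy, a mitochondrial D-glutamate cyclase, had 110.3, 104.1 and 74.3 CPM in wt/wt and 53, 49.2 and 50.1 CPM in fl/fl (log2 fold change −0.90, SE 0.15, edgeR adjusted p = 0.00862). The groups of these 3 genes did not overlap. In edgeR, Sertad1 was called with the block only, and its adjusted p was 0.0114 without it. Without wt/wt library 1 and the block, Sertad1 was at 0.90 (adjusted p = 0.0248), Lif at 2.30 (adjusted p = 0.0124) and Dglucy at −0.83 (adjusted p = 0.0206). Over the 5 lists together, 3 were lower and 6 higher in DESeq2, 1 was lower and 2 were higher in edgeR without the block, and 0 passed in either direction with offsets from effective lengths.

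The genes that p21 represses through the DREAM complex, which act in mitosis and DNA replication, had lower values in fl/fl. The paper reports fewer Ki67-positive cells and lower Mki67 transcript among Myc-deficient CD27SP NK cells. The part of p21, of fewer dividing cells and of Myc itself in these values was not tested. All 16 genes of the list were tested, and 3 fell past the threshold and 0 rose, against 0.872% and 1.28% of all genes. The groups were apart for 15, all of them lower, against 15.1% of all genes, and the median log2 fold change was −0.73. At an unadjusted p below 0.05, 15 were lower and 0 higher, against 10.2% and 12.4% of all genes. Birc5, or survivin, had 158.1, 135.0 and 133.6 CPM in wt/wt and 74.5, 55.3 and 81.5 CPM in fl/fl (log2 fold change −1.03, adjusted p = 0.00541, edgeR). Cks1b (−0.92, adjusted p = 0.00689) and Ccnb2 (−0.96, adjusted p = 0.0072) also fell. The count of 3 was 0 without replicate 1, without replicate 2 and with effective lengths, and 9 in DESeq2. It was also 0 without wt/wt library 1 and the block together, and 6 without the block alone. The log2 fold changes of Birc5, Cks1b and Ccnb2 stayed between −0.94 and −0.85 without wt/wt library 1 and the block, with adjusted p from 0.0103 to 0.0206 in edgeR.

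**Figure D3:**
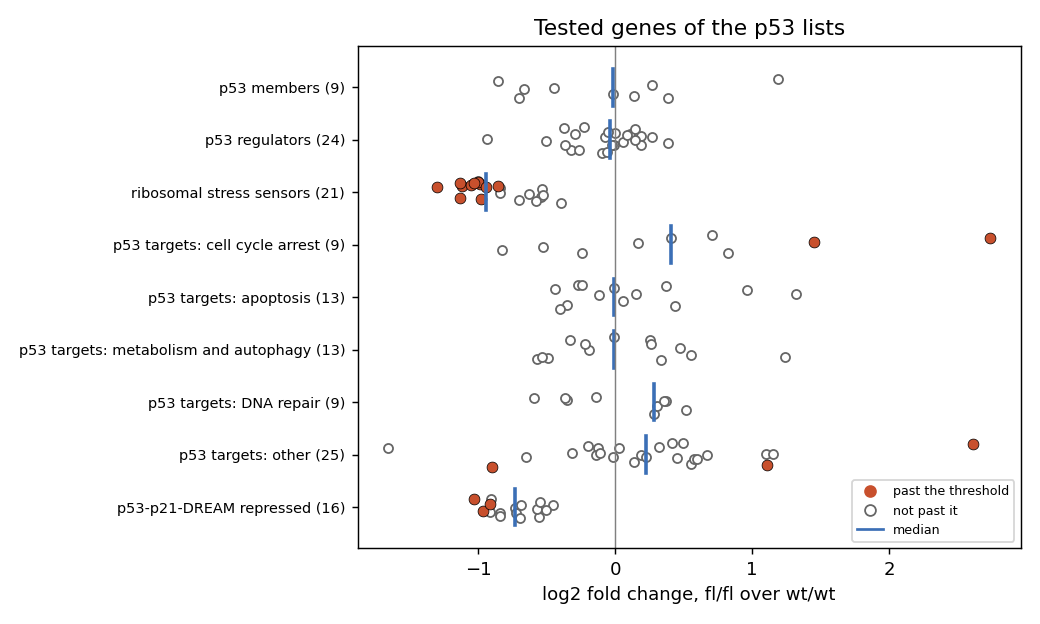
Log2 fold change of fl/fl over wt/wt (x axis) for every tested gene of each list, with the number tested in parentheses. Filled points passed the threshold, open points did not, and blue bars are medians. The ribosomal stress sensors and the DREAM-repressed genes lay below 0, with medians of −0.94 and −0.73, while the members and the 5 target lists spread to both sides of 0.

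Markers of other bone marrow cells also differed between the genotypes, and these values stand beside the results above. Over all genes tested, edgeR called 0.872% lower and 1.28% higher, and at an unadjusted p below 0.05 it had 10.2% lower and 12.4% higher. Of the basophil and mast cell markers, 9 of 9 rose in fl/fl, and their summed level was 82.1 to 101.2 CPM in wt/wt and 255.9 to 522.7 CPM in fl/fl, with Fcer1a at 0 in 1 wt/wt library. Of the neutrophil and granulocyte progenitor markers, 4 of 8 rose, with sums of 85.4 to 140.0 and 537.5 to 896.5 CPM. The most abundant of them, Mpo, had 71.2, 90.9 and 103.7 CPM in wt/wt and 467.7, 443.9 and 717.3 CPM in fl/fl. Erythroid markers rose in 3 of 8 cases (46.6 to 285.3 and 568.9 to 1187.9 CPM), dendritic cell markers in 3 of 7 (413.1 to 476.7 and 889.8 to 1143.7 CPM) and monocyte markers in 4 of 7. Without the replicate block these counts were 4 erythroid, 4 dendritic cell and 2 monocyte markers. The sum of the monocyte markers was mostly Ccr2, which was not called (0.25 on the log2 scale, adjusted p = 0.305), and without Ccr2 it was 155.3 to 258.0 CPM in wt/wt and 317.8 to 521.3 CPM in fl/fl. The dendritic cell sum was mostly Irf8 (251.1 to 288.5 and 584.9 to 764.0 CPM) and Itgax (140.0 to 148.1 and 254.5 to 323.8 CPM). Siglech and Flt3 were also higher in every fl/fl library than in any wt/wt library, whereas Bst2, Xcr1 and Cd209d overlapped.

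Of the T cell markers, whose bearers the sort removes by CD3, 0 of 6 passed in edgeR or in DESeq2. At an unadjusted p below 0.05, 2 were higher and 1 lower, and their sums were 253.9 to 509.3 CPM in wt/wt and 273.0 to 359.0 CPM in fl/fl. NK cell markers, which define the labelled cells, summed to 14885.1 to 15487.3 CPM in wt/wt and 16969.4 to 17713.5 CPM in fl/fl, and 0 of 11 passed in edgeR. At an unadjusted p below 0.05, 2 were higher and 1 lower, and DESeq2 called 1 lower.

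In fl/fl library 4, which had the highest Cdkn1a and Plk2, the neutrophil and dendritic cell sums were also the highest of all libraries, at 896.5 and 1143.7 CPM. Irf8 at 764.0 CPM and Itgax at 323.8 CPM made up most of this dendritic cell sum, and Flt3, at 11.8 CPM, was lowest among fl/fl. The NK cell sum, 17713.5 CPM, was the highest too. Of the NK cell markers, Prf1 had 1987.5 CPM there and 498.3 to 891.4 CPM elsewhere. Ncr1, Klrb1c, Klrk1, Klrd1, Eomes and Cd27 were lowest there among fl/fl. The basophil and erythroid sums of that library, 255.9 and 568.9 CPM, were the lowest among the fl/fl libraries. The share of counts on mitochondrial genes was 1.159%, 1.288% and 1.611% in wt/wt and 0.8298%, 1.101% and 0.8619% in fl/fl. The sort kept NK1.1+CD27+CD11b- cells, a gate that would leave out granulocytes, monocytes and erythroid cells. The part of such cells, and of RNA quality, in the values of Cdkn1a and of the targets that rose was not tested.

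**Figure D4:**
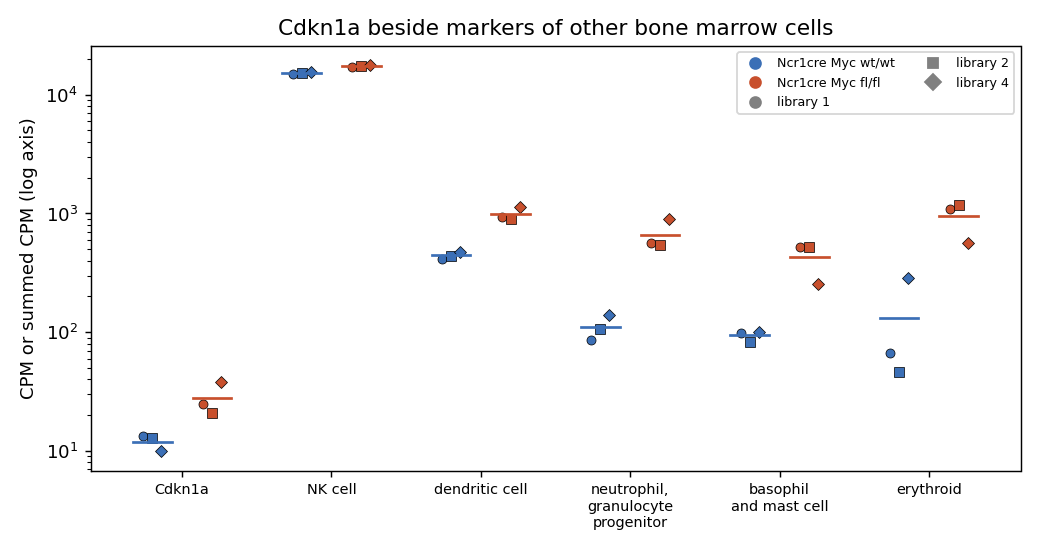
CPM of Cdkn1a and summed CPM of 5 marker lists in each library (log axis), coloured by genotype, with symbols for libraries 1, 2 and 4 and bars at the means. Cdkn1a was highest in fl/fl library 4, at 38.2 CPM, as were the dendritic cell, neutrophil and NK cell sums, while the basophil and erythroid sums were lowest in that library among fl/fl.

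Genes with profiles like those of Cdkn1a and Trp53 were sought among 8790 genes with a mean of at least 10 CPM, by the root-mean-square distance of centred log2 CPM over the 6 libraries. Nearest to Cdkn1a were Themis2 (0.132), Rnf19b (0.133) and Bhlhe40 (0.161), with log2 fold changes of 1.20, 1.30 and 1.23. Of these 3, Bhlhe40 passed the threshold (adjusted p = 0.00514, edgeR). Nearest to Trp53 were Eef1e1 (0.0331), Mrpl58 (0.0381) and Cops5 (0.0401), with log2 fold changes of −0.45, −0.47 and −0.37, none of which passed in edgeR. Eef1e1 encodes a component of the multi-tRNA synthetase complex and Mrpl58 a mitochondrial ribosomal protein.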

How the data were processed

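Libraries of CD27SP NK cells, made by the authors with the SMART-Seq v4 kit and sequenced single end, were compared between genotypes, 3 Ncr1cre Myc fl/fl against 3 Ncr1cre Myc wt/wt. The deposited tables hold, per transcript, an estimated count, which is not normalized, and a TPM value, which the authors' quantifier scaled per length and per Mio, beside length and effective length. Their columns are those of kallisto, whereas the methods name Salmon, nf-core/RNAseq and the GRCh38 transcriptome. The identifiers are those of mouse, and 100239 of 100583 matched GENCODE M21.

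Estimated counts were summed by symbol, rounded, filtered by filterByExpr, normalized by TMM and compared with edgeR's quasi-likelihood test (4.0.16, R 4.3.3). The replicate number was a block because the paper calls its analysis paired. P-values were adjusted by Benjamini-Hochberg over 15474 genes, with limits of 0.01 and an absolute log2 fold change of 0.5. Deviations of same-numbered libraries correlated at −0.0121, −0.0198 and 0.0505, each under 0.1, so equal numbers were not taken to mark paired mice. Replicates differed by more than counting noise (chi-square per degree of freedom 36.5 or more). The labels call them separate samples and do not tie them to mice, so p-values measure the spread between these libraries. Floors and intervals of counts cover counting error only.

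The members, lists, tests and alternatives were chosen with earlier results of these data known, the lower ribosomal protein transcripts included. Named are the members, Myc, the 3 genes of smallest p in each p53 list and all those past the threshold, the 3 nearest profiles to Cdkn1a and Trp53, and the most abundant marker where given. Trp53rk, Ptprv, Trp53cor1 and Pvt1 were not analysed here, and 1 marker list is not reported here. Sequences are RefSeq promoters. Alternatives included DESeq2 (1.42.0), limma-trend (3.58.1), no block, each replicate left out, effective-length offsets and other filters and scalings. Scripts were tested on simulated data.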

Additional observations from a re-analysis of the deposited data

How the results depend on the processing

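With 3 libraries per genotype and 1 of 8101219 counts, weak members such as Eda2r and Bbc3 could not be compared closely, and an adjusted p above the limit does not show that genotypes were alike. Myc, Trp53, Cdkn1a, Mdm2, Zmat3, Phlda3 and Sesn1 kept their direction under all 15 alternatives. The adjusted p limit of 0.05 and the largest adjusted p of 3 methods reuse the main fold changes, so no direction could differ there. The adjusted p of Cdkn1a ranged from 0.000261 to 0.105. Of the members, 1 was called lower and 1 higher under DESeq2, under an adjusted p below 0.05 with no fold limit, and without a filter, and 0 were called under the other alternatives. The sign of 3 weak differences changed. With each replicate left out in turn, Trp53inp1 ranged from −0.0473 to 0.241, Bbc3 from −0.18 to 0.929 and Ccng1 from −0.16 to 0.108, with the sign turned where replicate 1 was left out. Without Ncr1cre Myc wt/wt library 1 and with no block, Bbc3 was −0.218 and Ccng1 was 0.114, and with at least 10 counts in every library Ccng1 was 0.0114.

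Of the ribosomal stress sensors, 0 to 6 fell when a replicate was left out (0 without replicate 1), 19 in DESeq2 and at an adjusted p below 0.05, 0 with offsets from effective lengths and 2 with library size only. The lower calls over all genes, 135 in the main setting, were 10 without replicate 1, 47 without replicate 2, 548 in DESeq2, 8 with effective lengths and 25 with library size only, and the 11 sensors called stayed between −1.54 and −0.75 under all 15 alternatives. Of the other p53 targets, 0 to 1 were lower and 0 to 2 higher when a replicate was left out. Lower and higher were 3 and 6 in DESeq2, 4 and 6 at an adjusted p below 0.05, 2 and 5 without a filter, 0 and 3 in limma-trend and under the largest adjusted p of 3 methods, 0 and 1 with library size only, 1 and 2 with at least 10 counts in every library, 1 and 1 after thinning to the shallowest library, and 0 and 0 with effective lengths and without wt/wt library 1 and no block. Of the DREAM-repressed genes, 0 to 6 fell when a replicate was left out, 9 in DESeq2, and 0 with effective lengths, with library size only and without wt/wt library 1 and no block.

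Without the replicate block, 2 other p53 targets were higher, 13 ribosomal stress sensors and 6 DREAM-repressed genes were lower and 0 members passed, and over all genes 184 were lower and 203 higher. The samples share only a number, and the block changed no call of a member. The cause of these changes was not tested.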
